A study of Mus musculus with 4 samples.

Results

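The genes described here are 6 chemokines and 2 chemokine receptors of type 2 inflammation, Ccl17, Ccl22, Ccl24, Ccl11, Ccl8, Ccl1, Ccr4 and Ccr8, in leukocytes of the mouse nasal mucosa. They were chosen by symbol, and all 8 were found among the 27998 genes that each library lists. The cells were CD45+ (CD45, encoded by Ptprc, is a surface protein of leukocytes) and came from nasal mucosa of C57BL/6 mice aged 8 weeks. The 4 groups were Vehicle, Vehicle-OVA, Ribavirin and Ribavirin-OVA, in which mice received vehicle or ribavirin, an antiviral drug, and either no allergen or ovalbumin (OVA), which induces allergic rhinitis in this model. Each group was 1 library of single-cell RNA sequencing, and the number of mice behind a library is not given in the labels. Differences between groups therefore have no replicate check and were not tested. All intervals are 95% intervals that cover counting error only.

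Chemokines are small secreted proteins that direct the movement of leukocytes through G protein-coupled receptors. CCL17 and CCL22 both bind CCR4, a receptor of type 2 helper T cells and regulatory T cells, while CCL11 and CCL24 are eotaxins that draw eosinophils through CCR3. In the mouse, CCL8 and CCL1 bind CCR8, which is found on subsets of type 2 and regulatory T cells. Interleukin-4 and interleukin-13 are well-known inducers of several of these ligands in macrophages, dendritic cells and structural cells.

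After filters on cells, 24274, 17252, 19527 and 8752 cells were kept for Vehicle, Vehicle-OVA, Ribavirin and Ribavirin-OVA, the order used for every series of 4 values. The libraries held between 83784246 and 153685102 UMIs (unique molecular identifiers, each counting 1 captured transcript), and the median depth of a cell was between 3396 and 5077 UMIs. A Ptprc UMI was seen in 86.0% to 90.4% of the kept cells. Pairs of libraries shared between 57 and 174 cell barcodes, at most 0.909% of the smaller library. Levels are in CPM, the UMIs of a gene in a group of cells after the UMIs of all genes in these cells are scaled to the usual common total. Cell classes were rebuilt by clustering and are written with "-like". Over all cells, a lower level of a gene cannot be told apart from a smaller share of the cells that hold it, and the class shares differed widely: macrophage-like cells were 7.77%, 14.5%, 7.47% and 20.4% of the cells and T-lineage cells 26.5%, 9.33%, 21.3% and 22.0%. T-lineage cells include unnamed clusters that scored best for T cell markers. An unnamed cluster that scored best for macrophage markers, of 3230, 194, 2100 and 111 cells, is not counted as macrophage-like. The macrophage-like shares therefore depend on the naming rule.

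The 8 genes lay at few places of the genome, given here for GRCm38. Ccl22 (chr8:94745590-94751699) and Ccl17 (chr8:94810453-94812036) lay on the plus strand of chromosome 8 with their starts 64.9 kb apart. Ccl11 (chr11:82057823-82062955, plus strand), Ccl8 (chr11:82115185-82116799, plus strand) and Ccl1 (chr11:82176657-82305690, minus strand) spanned 248 kb of chromosome 11. Ccl24 lay at chr5:135569937-135573049 on the minus strand. Ccr4 (chr9:114490316-114504916, minus strand) and Ccr8 (chr9:120092114-120094906, plus strand) were both on chromosome 9.

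The promoter windows of the neighbours Ccl17 and Ccl22 and of Ccl8 are shown because Ccl17 and Ccl22 lie side by side but differed in pattern, and because Ccl8 differed between the ribavirin libraries and had a ratio close to 1 between the vehicle libraries over all cells. They are RefSeq sequences of GRCm38.p6 that end before the transcription start, 5′ to 3′ on the plus strand, at chr8:94810203-94810452 for Ccl17, chr8:94745434-94745589 for Ccl22 and chr11:82114935-82115184 for Ccl8. Capitals mark matches to TTCNNNNGAA, the spacing usually preferred by STAT6, or to TTCNNNGAA, the general STAT spacing.
Ccl17: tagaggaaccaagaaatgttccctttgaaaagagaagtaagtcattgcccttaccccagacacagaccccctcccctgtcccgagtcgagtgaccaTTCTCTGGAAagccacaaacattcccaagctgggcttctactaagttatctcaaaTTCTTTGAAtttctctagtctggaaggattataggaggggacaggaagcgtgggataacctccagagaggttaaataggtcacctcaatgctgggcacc
Ccl22: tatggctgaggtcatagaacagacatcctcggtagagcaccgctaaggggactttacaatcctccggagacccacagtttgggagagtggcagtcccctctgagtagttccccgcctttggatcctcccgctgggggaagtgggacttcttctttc
Ccl8: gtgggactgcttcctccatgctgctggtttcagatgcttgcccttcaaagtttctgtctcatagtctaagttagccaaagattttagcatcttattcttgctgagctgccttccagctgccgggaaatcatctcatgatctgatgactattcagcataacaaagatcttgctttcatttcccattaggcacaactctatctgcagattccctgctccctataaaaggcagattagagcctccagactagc
Both motifs read the same on either strand. Of the 6 member windows at hand (Ccl24 and Ccl11 were not analysed here), only that of Ccl17 held a match, and it held 1 of each motif, starting 154 and 99 bases before the start. Of 32851 windows of all genes, 5.85% held TTCNNNNGAA and 7.02% held TTCNNNGAA. A match is a description of letters, not of binding.

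With OVA, the eotaxins were higher and Ccl17 was lower under both vehicle and ribavirin, whereas Ccl22, Ccr4 and Ccr8 had ratios below 1 under vehicle and above 1 under ribavirin. The interval of Ccr8 under ribavirin included 1, and so did that of Ccl8 under vehicle. The comparison of OVA with no OVA under vehicle asks how the allergen model changes these transcripts. By the rule of a ratio of at least 2-fold with at least 20 UMIs over both libraries, 2 of the 8 genes were higher (Ccl24 and Ccl11) and 2 were lower (Ccl17 and Ccl1). Among all 16674 genes with enough UMIs, 13.7% were higher and 11.9% lower by that rule. Under ribavirin 4 were higher (Ccl22, Ccl24, Ccl11 and Ccl8) and 1 was lower (Ccl17), where 13.4% of 17297 genes were higher and 3.64% lower. The median log2 ratio of the 8 genes was −0.80 under vehicle and 1.09 under ribavirin, beside −0.00 and 0.43 over all genes. Scaling to the median gene, which moves every log2 ratio under ribavirin down by 0.44, also put Ccl1 past the 2-fold line there, as a gene lower with OVA. Both OVA comparisons use their own controls and share no library.

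The comparison of ribavirin with vehicle asks what the drug changes in the same setting. Without OVA, Ribavirin exceeded Vehicle at least 2-fold for 2 of the 8 genes (Ccl24 and Ccl11), where 16.9% of all genes passed in either direction. With OVA, Ribavirin-OVA exceeded Vehicle-OVA for 3 (Ccl22, Ccl1 and Ccr8), where 26.1% of all genes passed in either direction, and scaling to the median gene gave Ccl22 as higher and Ccl24 as lower in place of these 3. The median log2 ratio was −0.24 without OVA and 0.71 with OVA, beside −0.05 and 0.47 over all genes. The plot of levels over all cells shows how far the 8 genes spread within each library.

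**Figure D1:**
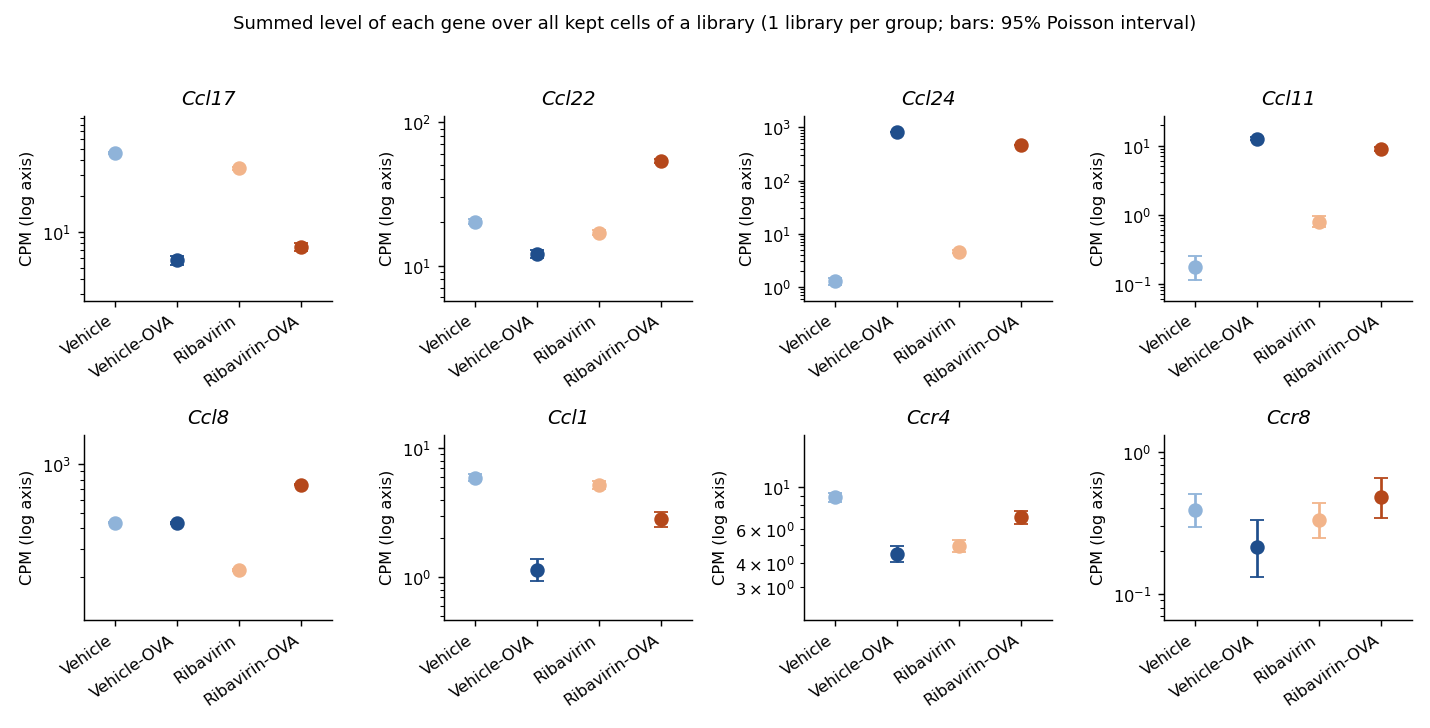
Level of each of the 8 genes over all kept cells of each library (CPM, log axis), with 95% counting intervals, 1 library per group. Ccl24 was 807 and 463 CPM in the libraries with OVA and 1.27 and 4.57 CPM in those without, whereas Ccl8 was between 221 and 743 CPM and Ccr8 between 0.215 and 0.477 CPM.

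Ccl17, a CCR4 ligand known as a product of dendritic cells, was lower in both libraries with OVA. Its level was 46.0 CPM in Vehicle, 5.75 in Vehicle-OVA, 34.4 in Ribavirin and 7.47 in Ribavirin-OVA, from 6888, 536, 5280 and 626 UMIs. Both libraries without OVA were thus above both with OVA. The level was 7.99-fold lower with OVA under vehicle (interval 7.32 to 8.74) and 4.60-fold lower under ribavirin (4.23 to 5.00). Between ribavirin and vehicle the ratio was 0.747 without OVA (0.720 to 0.774) and 1.30 with OVA (1.16 to 1.46).

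Without OVA, most Ccl17 transcripts were held by cells that resembled conventional dendritic cells (cDC-like cells). These cells had 72.4%, 42.0%, 58.8% and 19.2% of the UMIs of the gene, so not most of them with OVA. Within these cells Ccl17 was 416, 79.4, 285 and 36.2 CPM in 1074, 237, 944 and 237 cells. The lower level with OVA was therefore seen inside the class as well as over all cells, 5.24-fold under vehicle (4.59 to 6.02) and 7.86-fold under ribavirin (6.55 to 9.52). A Ccl17 UMI was seen in 24.4%, 10.1%, 23.0% and 8.44% of cDC-like cells at median depths of 10707.5, 12050, 10960.5 and 13755 UMIs. After each cell was thinned to 1000 UMIs the shares were 10.5%, 5.43%, 10.1% and 2.74%, so the order was kept at equal depth. B cell-like cells, which are not known as a source, had a UMI in at most 1.65% of cells at median depths of 3105.5 to 4489 UMIs, and in at most 0.314% after thinning.

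The cDC-like class consisted of more than 1 cluster. The cluster led by Cd209a, Timd4 and Mgl2 had Ccl17 levels of 415, 86.2, 322 and 38.7 CPM, close to those of the class. The Xcr1, Birc5 and Stmn1 cluster had 422 CPM in Vehicle and 35.2 CPM in Ribavirin. In Vehicle 374 of the 909 UMIs of the Xcr1 cluster came from a single cell with UMIs of 2 of 8 cDC markers and 5 of 9 macrophage markers. Without the top cell of each library its levels were 251 and 26.3 CPM, while a Ccl17 UMI was seen in 21.5% and 17.9% of its cells. The shares of cells with a UMI in this cluster thus differed less between both libraries without OVA than the levels.

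Migratory DC-like cells, which carry the lymph node homing receptor Ccr7 and the actin bundler Fscn1, held Ccl17 at 361, 170, 804 and 495 CPM in 220, 63, 124 and 52 cells. With OVA the level was 2.12-fold lower under vehicle (1.72 to 2.64) and 1.62-fold lower under ribavirin (1.41 to 1.88). Of the 905 UMIs in Ribavirin, 350 came from a single cell, and without the top cell of each library the levels were 267, 150, 504 and 428 CPM, a log2 ratio of −0.24 under ribavirin, so most of that difference rested on this cell. The share of these cells with a UMI was 22.3%, 31.7%, 29.0% and 36.5%, higher with OVA in both pairs. With OVA, 32.3% and 30.4% of the Ccl17 UMIs lay in macrophage-like cells, at 7.35 and 10.8 CPM against 3.54 and 5.33 CPM without OVA, but these UMIs came from 28 and 18 cells, and 75 of the 190 in Ribavirin-OVA from a single cell. The share of macrophage-like cells with a Ccl17 UMI was 1.33%, 1.12%, 2.95% and 1.01%, lower with OVA in both pairs. These levels and shares leave out the unnamed cluster that scored best for macrophage markers. That cluster held 1067, 3, 944 and 35 Ccl17 UMIs, at 35.2, 1.80, 45.5 and 36.0 CPM. These were 15.5%, 0.560%, 17.9% and 5.59% of the UMIs of the gene. The higher Ccl17 level of macrophage-like cells with OVA thus depended on the naming rule. The cDC-like cells themselves had 4986, 225, 3102 and 120 Ccl17 UMIs.

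**Figure D2:**
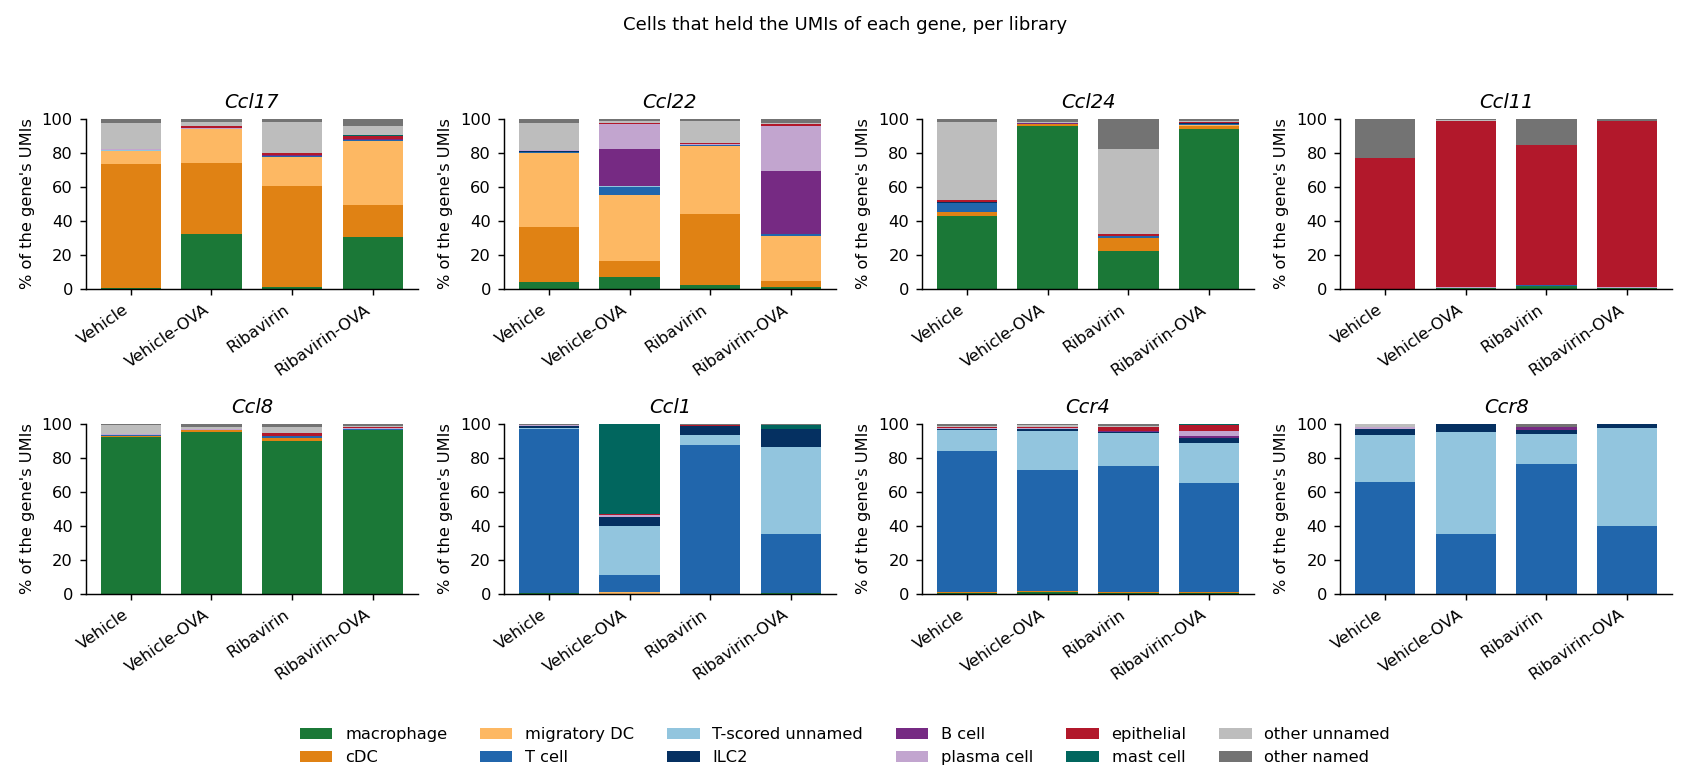
Share of the UMIs of each gene that each cell class held, in percent of that gene's UMIs, per library (stacked bars, 1 library per group). Ccl24 and Ccl8 with OVA lay at 93.9% to 96.0% in macrophage-like cells, Ccl11 with OVA at 97.3% and 97.7% in epithelial-like cells, and Ccl17 passed from mainly cDC-like cells without OVA to a mixture with OVA.

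Ccl22, the other CCR4 ligand, did not follow its neighbour Ccl17. Its level over all cells was 20.3, 12.1, 16.9 and 53.6 CPM, highest in Ribavirin-OVA and lowest in Vehicle-OVA. With OVA the ratio was 0.595 under vehicle (0.555 to 0.637) and 3.17 under ribavirin (3.02 to 3.33), and between the 2 OVA libraries it was 4.45 (4.16 to 4.75). The libraries without OVA lay between the OVA libraries.

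Migratory DC-like cells had the highest Ccl22 level without OVA, 900 and 919 CPM, and had 700 CPM in Vehicle-OVA and 2524 CPM in Ribavirin-OVA. A Ccl22 UMI was seen in 51.4%, 47.6%, 60.5% and 57.7% of them at median depths of 6113, 10540, 8506.5 and 6914.5 UMIs, and in at most 1.39% of NK-like cells, whose median depths were 3471 to 5579 UMIs. The OVA ratio within migratory DC-like cells was 0.778 (0.697 to 0.867) under vehicle and 2.75 (2.53 to 2.99) under ribavirin. Of the 1199 Ccl22 UMIs of these cells in Ribavirin-OVA, 468 came from a single cell, 39.0%. The ratio under ribavirin turned to a log2 value of −0.61, against 1.46, when libraries were clustered separately. In cDC-like cells Ccl22 was 82.2, 37.4, 99.5 and 42.2 CPM, lower with OVA in both pairs (2.20-fold, 1.80 to 2.71, and 2.36-fold, 1.97 to 2.83).

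Outside dendritic cells, Ccl22 was seen at high counts in a few B-lineage cells of the OVA libraries. B cell-like cells had 3.11, 216, 2.15 and 1756 CPM, from 4, 243, 3 and 1651 UMIs. Plasma cell-like cells had 1.38, 32.9, 1.53 and 111 CPM, from 20, 167, 13 and 1198 UMIs. Those UMIs lay in very few cells. Cells with more than 10 Ccl22 UMIs in these classes numbered 4 in Vehicle-OVA and 10 in Ribavirin-OVA and held 34.6% and 62.2% of the Ccl22 UMIs of their libraries, whereas neither library without OVA had such a cell.

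All of these 4 and 10 cells had UMIs of Cd79a, which encodes a signalling chain of the B cell receptor, and of at least 3 of the 7 B cell markers. The proliferation gene Mki67 was seen in 4 and 7 of them. They also had UMIs of at least 3 of the migratory DC markers, and their median total was 48998.5 and 37315 UMIs, against 7601.5 and 16660 UMIs for their classes. The cell with the most Ccl22 had 890 UMIs of the gene among 131917 and all 7 B cell markers. Without these 4 and 10 cells, left out after seeing the data, Ccl22 over all cells was 7.91 CPM in Vehicle-OVA and 20.4 CPM in Ribavirin-OVA, with OVA ratios of 0.390 (0.360 to 0.423) under vehicle and 1.21 (1.13 to 1.28) under ribavirin. Most of the 3.17-fold difference under ribavirin thus rested on them. The remaining 1.21 was below the ratio of the median gene for OVA under ribavirin, 1.36. These cells were not marked as doublets, but the doublet step marked fewer cells than expected, and the part of doublets in this result was not tested.

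**Figure D3:**
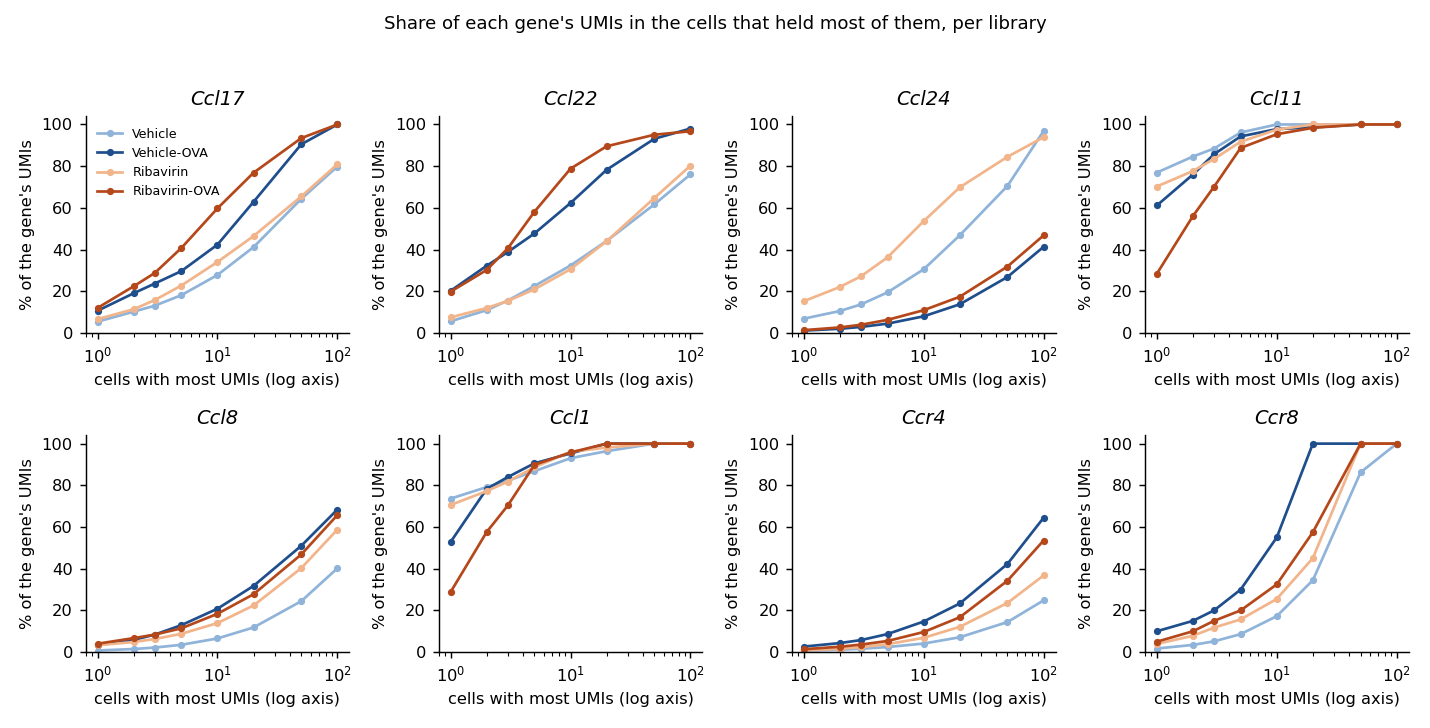
Share of the UMIs of each gene held by its top cells, from 1 to 100 cells (log axis), in percent of the gene's UMIs per library. For Ccl1 and Ccl11 the single top cell held between 28.4% and 76.9%, whereas the curves of Ccl24, Ccl8 and Ccr4 rose slowly.

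Ccl24, an eotaxin of alternatively activated macrophages, had the largest ratios of the 8 genes in the OVA comparisons. Its level over all cells was 1.27 CPM in Vehicle, 807 in Vehicle-OVA, 4.57 in Ribavirin and 463 in Ribavirin-OVA, from 190, 75199, 703 and 38812 UMIs. With OVA it was 636-fold higher under vehicle (552 to 737) and 101-fold higher under ribavirin (94.0 to 109). Between the libraries with OVA the ratio of ribavirin to vehicle was 0.574 (0.567 to 0.581), and between those without it was 3.60 (3.07 to 4.25). In Ribavirin, 107 UMIs came from a single monocyte-like cell.

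With OVA, 95.9% and 93.9% of the Ccl24 UMIs were in macrophage-like cells. Without OVA these cells held 43.2% and 22.0%, and unnamed clusters held 45.8% and 49.5%. Of the UMIs in unnamed clusters, 77 of 87 in Vehicle and 339 of 348 in Ribavirin lay in the unnamed cluster that scored best for macrophage markers. Within the macrophage-like class the level was 5.18, 3061, 10.7 and 2071 CPM, in 1886, 2505, 1458 and 1787 cells. It was 591-fold higher with OVA under vehicle (476 to 743) and 193-fold higher under ribavirin (165 to 227). Of all genes with enough UMIs in these cells, 13.8% under vehicle and 12.0% under ribavirin were at least 2-fold higher with OVA. A Ccl24 UMI was seen in 2.17%, 60.4%, 2.47% and 63.8% of the cells, and in 0.841%, 45.0%, 0.892% and 46.7% after thinning to 1000 UMIs, so the direction was the same at equal depth.

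The macrophage-like class held different clusters with and without OVA. The cluster led by Arg1, Fn1 and Spp1 had 41, 1979, 80 and 1309 cells. The Ccl12, Ccl7 and Vcam1 cluster had 1446, 99, 1258 and 97 cells. The cluster led by Gm26917, Gm42418 and Hebp1 had 399, 427, 120 and 381 cells. In every library the cells of this Gm26917 cluster had fewer UMIs on average than those of the others, and their quality was not tested. The Arg1 cluster made up most of the class with OVA and the Ccl12 cluster most of it without.

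Ccl24 was higher with OVA in each of the 3 clusters, which the plot of macrophage-like clusters shows. In the Arg1 cluster it was 8.99, 3285, 101 and 2260 CPM. In the Ccl12 cluster it was 5.01, 54.4, 5.20 and 150 CPM, which is 10.9-fold (7.67 to 15.3) and 28.8-fold (21.7 to 38.7) higher with OVA. In the Gm26917 cluster it was 6.53, 1101, 1.92 and 1002 CPM, where the values without OVA rested on 4 and 1 UMIs. The ratio was thus smaller in the Ccl12 cluster than over the class, where the makeup of the class also changed.

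Classes not known as sources had some Ccl24 with OVA as well. Neutrophil-like cells had 26.4 and 27.1 CPM with OVA, from 8.48% and 7.53% of cells, against 0.0526 and 0.193 CPM without. B cell-like cells had 16.9 and 11.7 CPM with OVA and NK-like cells 34.1 and 16.2 CPM, and neither class had a Ccl24 UMI without OVA. After thinning, a Ccl24 UMI was seen in 2.55% and 3.11% of neutrophil-like cells with OVA, against 45.0% and 46.7% of macrophage-like cells, whose median depths were 3286.5 and 3049 against 8250 and 7708 UMIs. In cDC-like cells Ccl24 was 235 and 221 CPM with OVA and in migratory DC-like cells 116 and 486 CPM, between the levels of those classes and of macrophage-like cells. Whether Ccl24 outside macrophage-like cells came from free RNA was not tested. The cell with the most Ccl24 in Vehicle-OVA, 843 UMIs among 17647, had UMIs of 8 of 9 macrophage markers and of 9 of 9 neutrophil markers.

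**Figure D4:**
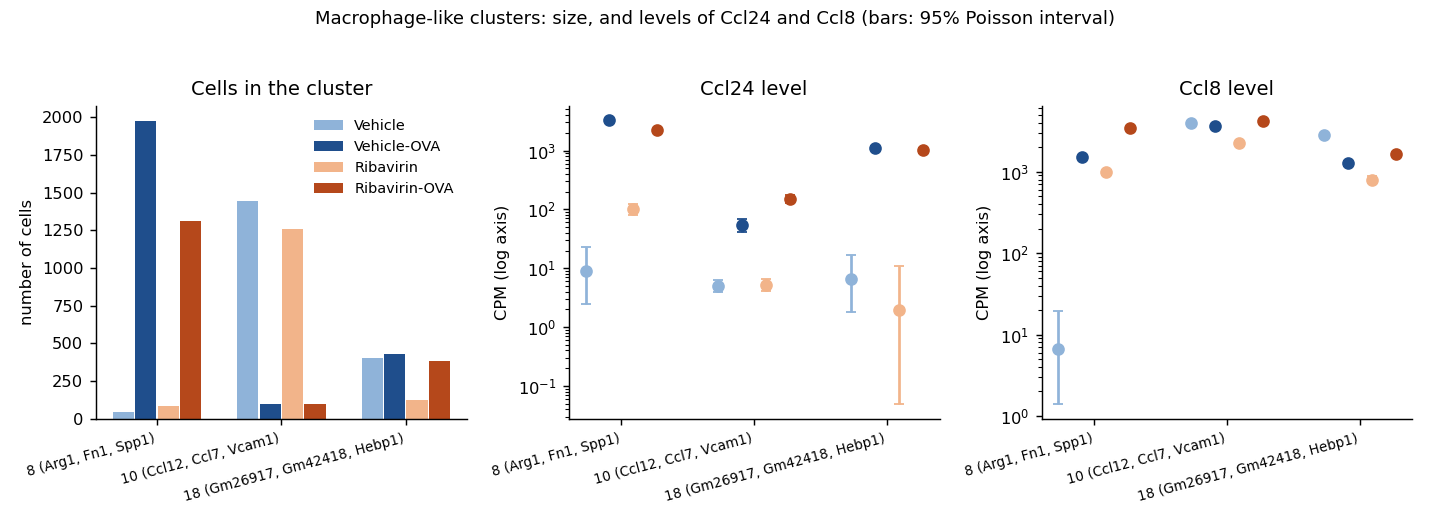
Cells per macrophage-like cluster (left) and levels of Ccl24 and Ccl8 in them (CPM, log axis, 95% counting intervals), 1 library per group. Ccl24 was higher with OVA in all 3 clusters, and Ccl8 in the Ccl12 cluster stayed between 2245 and 4210 CPM in all 4 libraries.

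Ccl11, the eotaxin of structural cells, was also higher with OVA, but its transcripts came from few cells. Over all cells it was 0.174, 12.6, 0.787 and 8.92 CPM, from 26, 1171, 121 and 747 UMIs in 6, 36, 13 and 32 cells. The OVA ratio was 72.4 (49.2 to 111) under vehicle and 11.3 (9.33 to 13.8) under ribavirin. The top cell held 716 UMIs, 61.1%, in Vehicle-OVA and 212 UMIs, 28.4%, in Ribavirin-OVA. Leaving out the top cell of each library, the ratios were 122 (55.6 to 334) and 27.3 (19.4 to 39.4). Between the OVA libraries the ratio of ribavirin to vehicle was 0.709 (0.646 to 0.778), and it became 1.31 without the top cells, so its direction rested on single cells.

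Epithelial-like cells held 76.9%, 97.7%, 81.8% and 97.3% of the Ccl11 UMIs. Most lay in the cluster led by Reg3g, Tff2 and Bpifa1, at 13.3, 514, 12.7 and 109 CPM in 68, 70, 265 and 173 cells. Ccl11 in this cluster was 38.7-fold (24.9 to 63.6) and 8.59-fold (6.96 to 10.7) higher with OVA. Cells with more than 10 Ccl11 UMIs numbered 1, 7, 1 and 7. All had UMIs of Epcam, an epithelial adhesion protein, and 1, 7, 1 and 5 of them had UMIs of Krt5, the keratin of basal cells. Stromal-like cells, a known source of this eotaxin in tissue, were only 26, 34, 66 and 38 cells and held 2, 1, 19 and 10 UMIs. A Ptprc UMI was seen in 39.4%, 58.6%, 40.2% and 39.8% of epithelial-like cells, below the share over all cells, so the label CD45+ held less well for them.

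Ccl8, a CCR8 ligand of the mouse, had nearly the same level in both vehicle libraries over all cells and differed between the ribavirin libraries. It was 434, 431, 221 and 743 CPM, from 64918, 40152, 34020 and 62271 UMIs. With OVA the ratio was 0.994 (0.982 to 1.01) under vehicle and 3.36 (3.31 to 3.40) under ribavirin. Ribavirin was 1.96-fold lower than Vehicle (1.93 to 1.99) without OVA and 1.72-fold higher (1.70 to 1.75) with OVA. The lowest and the highest library were both given ribavirin.

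In each library, 90.0% to 96.0% of the Ccl8 UMIs were in macrophage-like cells, where the level was 3783, 1616, 2119 and 3398 CPM. A Ccl8 UMI was seen in 60.0%, 36.0%, 50.4% and 55.6% of these cells, and in 46.9%, 21.7%, 31.4% and 34.3% after thinning. In B cell-like cells the shares after thinning were 2.83%, 2.39%, 1.20% and 5.04%. The OVA ratio within the class was 0.427 (0.422 to 0.433) under vehicle and 1.60 (1.58 to 1.63) under ribavirin. The first of these depended on which clusters the class holds: its log2 value was −1.23 here and between 0.14 and 0.22 under 4 other ways to form the class.

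By cluster, the Ccl12 cluster had Ccl8 at 3938, 3644, 2245 and 4210 CPM, with OVA ratios of 0.925 (0.897 to 0.954) and 1.87 (1.82 to 1.93). The Arg1 cluster, which holds most macrophage-like cells with OVA, had 1513 CPM in Vehicle-OVA and 3402 CPM in Ribavirin-OVA, a ratio of 2.25 (2.22 to 2.28). Without OVA the Arg1 cluster had 3 Ccl8 UMIs in 41 cells of Vehicle and 980 CPM in 80 cells of Ribavirin. The Gm26917 cluster had 2799, 1269, 802 and 1662 CPM, with OVA ratios of 0.453 (0.416 to 0.494) and 2.07 (1.85 to 2.33). Under vehicle, Ccl8 was therefore lower with OVA within the Gm26917 cluster and differed less in the Ccl12 cluster, and the Arg1 cluster, in which most of the class lay with OVA, had less Ccl8 than the Ccl12 cluster.

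Macrophage-like cells that held both Ccl24 and Ccl8 were rare without OVA and common with it, 26, 645, 21 and 701 cells. Of the macrophage-like cells with a Ccl8 UMI, 2.30%, 71.5%, 2.86% and 70.5% also had a Ccl24 UMI, beside 2.17%, 60.4%, 2.47% and 63.8% of all macrophage-like cells. Co-detection thus largely followed the share of macrophage-like cells with Ccl24.

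Ccl1, the other CCR8 ligand, known from activated T cells, was a low transcript that few cells held. Its level over all cells was 5.92, 1.14, 5.17 and 2.82 CPM, from 887, 106, 795 and 236 UMIs in 49, 15, 35 and 20 cells. With OVA it was 5.21-fold lower under vehicle (4.25 to 6.43) and 1.84-fold lower under ribavirin (1.59 to 2.13). The single top cells held 653, 56, 561 and 68 UMIs, which is 73.6%, 52.8%, 70.6% and 28.8% of the total. Without them the OVA ratio was 0.344 under vehicle and 1.32 under ribavirin, so the direction under ribavirin rested on single cells.

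T-lineage cells, which are the T cell-like clusters and 3 unnamed clusters that scored best for T cell markers, held 97.0%, 38.7%, 93.2% and 86.0% of the Ccl1 UMIs. A UMI was seen in 29, 10, 19 and 14 of these cells. Their OVA ratio under vehicle, −2.54 on the log2 scale, turned to between 0.044 and 0.063 under 3 other settings for filters and clustering. The top cell of Vehicle, with 653 of the 860 UMIs of T-lineage cells, had UMIs of 1 of 7 T cell markers and 3 of 6 plasma cell markers, and without it T-lineage cells held 88.5% of the Ccl1 UMIs. The top cell of Vehicle-OVA was mast cell-like and had UMIs of 7 of 7 mast cell markers. In ILC2-like cells (group 2 innate lymphoid cells, which make type 2 cytokines) Ccl1 was 37.5, 34.7, 106 and 35.4 CPM, from 14, 6, 44 and 25 UMIs in 96, 35, 90 and 74 cells. Of these UMIs 5, 6, 36 and 24 came from a single cell. In T-lineage cells Ccl1 was 26.9, 4.62, 30.2 and 17.0 CPM. No order of ILC2-like and T-lineage cells is read from these levels, since without the top cell of each class and library they were 24.3, 0, 19.6 and 1.46 CPM in the former and 6.48, 1.58, 7.33 and 11.3 CPM in the latter.

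Ccr4, the receptor of CCL17 and CCL22, was lower over all cells with OVA under vehicle and higher under ribavirin. Its level was 8.80, 4.47, 4.94 and 6.93 CPM, from 1318, 416, 759 and 581 UMIs. The OVA ratio was 0.507 (0.453 to 0.567) under vehicle and 1.40 (1.26 to 1.57) under ribavirin, where the median gene had 1.36. T-lineage cells, which held 87.6% to 94.9% of the Ccr4 UMIs, were 26.5%, 9.33%, 21.3% and 22.0% of the cells.

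Within T-lineage cells the Ccr4 level was 39.1, 44.3, 28.7 and 42.6 CPM, higher with OVA in both pairs. The ratio was 1.13 (1.01 to 1.27) under vehicle and 1.48 (1.32 to 1.66) under ribavirin. A Ccr4 UMI was seen in 13.9%, 14.3%, 11.6% and 15.2% of these cells at median depths of 4063 to 5181 UMIs, against at most 0.102% of neutrophil-like cells at median depths of 2308 to 3286.5 UMIs. After thinning the shares were 3.54%, 3.84%, 2.73% and 3.81%. Under vehicle the OVA ratio was thus below 1 over all cells and above 1 within T-lineage cells, and under ribavirin both were above 1.

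Ccr4 differed between kinds of T-lineage cell. Cells were split by their UMIs: those with a Foxp3 UMI (the factor of regulatory T cells), else with Il4, Il5 or Il13, else with Cd8a or Cd8b1, else with Cd4. Ccr4 was 53.7, 70.5, 55.5 and 106 CPM in the Foxp3 cells (572, 133, 501 and 168 cells). It was 54.7, 83.7, 40.5 and 68.0 CPM in the Cd4 cells and 8.73, 3.39, 10.6 and 14.1 CPM in the Cd8 cells. Foxp3 and Cd4 cells therefore had more Ccr4 than Cd8 cells in every library. In the Il4, Il5 or Il13 cells, which numbered 19, 49, 26 and 116, it was 47.0, 14.8, 23.5 and 4.79 CPM from 6, 9, 6 and 7 UMIs. A cell without a UMI is not shown to lack a gene.

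**Figure D5:**
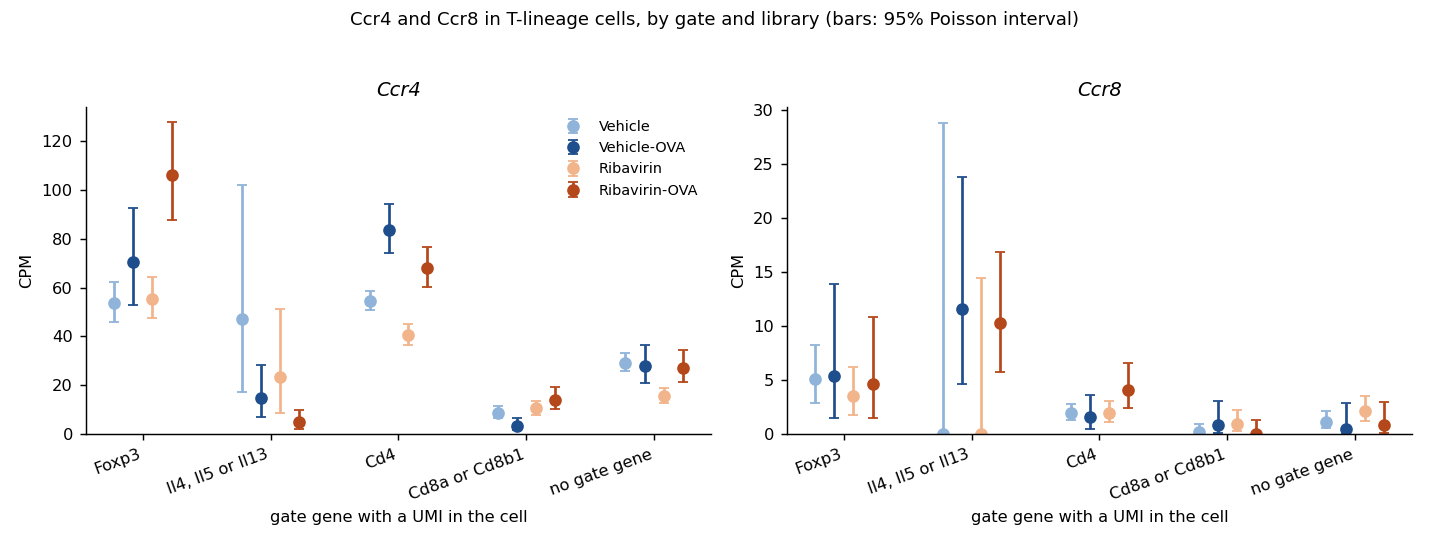
Levels of Ccr4 and Ccr8 in T-lineage cells split by UMIs of Foxp3, Il4, Il5 or Il13, Cd4, Cd8a or Cd8b1, or none of them (CPM, 95% counting intervals), 1 library per group. Ccr4 was 3.39 to 14.1 CPM in the Cd8 cells and 40.5 to 106 CPM in the Foxp3 and the Cd4 cells of the 4 libraries, and the Ccr8 values of the Il4, Il5 or Il13 cells rested on 0, 7, 0 and 15 UMIs.

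By cluster, the T cell-like cluster led by Il17a, Cxcr6 and Actn2 had Ccr4 at 43.5, 67.6, 25.2 and 47.7 CPM. The unnamed cluster led by Tnfrsf4, Foxp3 and Ikzf2 had 56.7, 62.7, 52.8 and 78.4 CPM. The Ms4a4b, Nkg7 and Tcf7 cluster had 29.0, 24.0, 28.8 and 39.8 CPM, below both others except in Ribavirin, where it was above the Il17a cluster. The Tnfrsf4 cluster thus had the highest Ccr4 level of these 3 in every library except Vehicle-OVA, where the Il17a cluster was above it.

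Ccr8, the receptor of CCL8 and CCL1 in the mouse, was rare in all 4 libraries. Its level was 0.387, 0.215, 0.332 and 0.477 CPM, from 58, 20, 51 and 40 UMIs. The OVA ratio was 0.554 (0.316 to 0.935) under vehicle and 1.44 (0.927 to 2.22) under ribavirin, and between the OVA libraries it was 2.22 (1.27 to 4.01). T-lineage cells held 54, 19, 48 and 39 of these UMIs, and neutrophil-like cells held none.

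Within T-lineage cells Ccr8 was 1.69, 2.14, 1.95 and 3.26 CPM. The OVA ratio there was 1.27 (0.710 to 2.17) under vehicle, an interval that includes 1, and 1.67 (1.07 to 2.60) under ribavirin. Foxp3 cells had 5.11, 5.42, 3.49 and 4.66 CPM. In the Il4, Il5 or Il13 cells it was 11.5 CPM from 7 UMIs in Vehicle-OVA and 10.3 CPM from 15 UMIs in Ribavirin-OVA, with 0 UMIs in the few such cells of the libraries without OVA. These few UMIs leave the Ccr8 level of the cytokine-positive cells imprecise. The median depth of these cells over the 4 libraries was 9222.5 UMIs, against 4629 for the Foxp3 cells. After thinning, the 85 cells that still had an Il4, Il5 or Il13 UMI held 0 Ccr8 UMIs. T-lineage cells with UMIs of both receptors numbered 10, 3, 7 and 9, which is 18.5%, 16.7%, 15.6% and 25.0% of those with a Ccr8 UMI.

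Dendritic cells with a Ccl17 UMI had a Ccl22 UMI more often than all cells of their class. Of the migratory DC-like cells with a Ccl17 UMI, 87.8%, 85.0%, 97.2% and 94.7% also had a Ccl22 UMI. Of all migratory DC-like cells 51.4%, 47.6%, 60.5% and 57.7% had one. Of the cDC-like cells with a Ccl17 UMI the shares were 41.2%, 33.3%, 47.0% and 45.0%. Of all cDC-like cells they were 14.5%, 9.28%, 15.8% and 10.5%. Cells that held both ligands were more frequent among migratory DC-like than among cDC-like cells in each library. Ccl22 was also more frequent in all migratory DC-like than in all cDC-like cells.

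Other chemokine and type 2 cytokine genes were taken as a list of 32, of which 30 had enough UMIs. With OVA, 10 were at least 2-fold higher and 7 lower under vehicle, where 13.7% and 11.9% of all genes were. Under ribavirin 5 were higher and 5 lower, where 13.4% and 3.64% of all genes were. Between ribavirin and vehicle, 7 passed in either direction without OVA and 16 with OVA, where 16.9% and 26.1% of all genes passed. The median log2 ratios of the list were 0.29, −0.07, −0.03 and −0.02 in the order OVA under vehicle, OVA under ribavirin, ribavirin without OVA and ribavirin with OVA. Over all genes they were −0.00, 0.43, −0.05 and 0.47.

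Il4, Il5 and Il13 are named because they passed the 2-fold rule as higher with OVA in both pairs. Of the other cytokine genes on the list, none of Il9, Il25, Il33 and Tslp passed as higher in either OVA pair. Il25 passed as lower under vehicle. Il4 was 0.227, 5.69, 0.247 and 14.0 CPM, Il5, the eosinophil growth factor, was 0.274, 1.01, 0.560 and 7.46 CPM, and Il13 was 0.220, 4.39, 0.501 and 24.1 CPM. In Vehicle-OVA, 50.2% of the Il4 UMIs lay in basophil-like cells, and in Ribavirin-OVA 86.6% lay in T-lineage cells. Among chemokines, Ccl9 was 3.56-fold and 2.80-fold higher with OVA. The monocyte chemokines Ccl2 (0.478 and 0.487) and Ccl12 (0.253 and 0.388) and the T cell chemokine Ccl5 (0.189 and 0.235) had ratios below 1 in both pairs. Ccr3, the eotaxin receptor, was 1.35, 2.29, 1.32 and 1.97 CPM, with OVA ratios of 1.70 and 1.49. Of its UMIs, neutrophil-like cells held 90, 99, 70 and 31 and T-lineage cells 85, 43, 106 and 93, and no cluster was named eosinophil-like.

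As a description of which genes had the most similar pattern, Pearson's r of log2(CPM + 1) was taken over 68 sums of cells per class or unnamed cluster and library, which share library and depth, among 14615 genes. The nearest genes of Ccl17 were Il12b (0.859), Zfp366 (0.848) and Timd4 (0.833). Those of Ccl22 were Strip2 (0.813), Alpk2 (0.786) and Il4i1 (0.780). Ccl24 was nearest to Arg1 (0.798), Retnla (0.779) and Cltc (0.756), and Ccl8 to C6 (0.832), Ms4a7 (0.830) and Ms4a14 (0.813). The genes named for Ccl24 and those named for Ccl8 did not overlap. No expected overlap was computed for such short lists out of 14615 genes, so no difference between these macrophage chemokines is read from this. Ccl11 was nearest to Pthlh (0.929), Sfrp1 (0.912) and Msx2 (0.910), and Ccl1 to Pdcd1 (0.859), Pcsk1 (0.859) and C030034L19Rik (0.858). Ccr4 was nearest to Fam124b (0.917), Tnfsf11 (0.906) and 1700012B07Rik (0.900). Ccr8 was nearest to Neb (0.898), Tnfsf11 (0.854) and Pdcd1 (0.852), so the receptors shared Tnfsf11.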

How the data were processed

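The authors deposited, per library, whole-number UMI counts by gene and cell barcode, without normalization. Per the submitters' processing notes, Cell Ranger 5.0.0 and the mm10 build were used. CD45+ cells had been enriched with magnetic beads per the labels (the series text names flow sorting), and 10x droplet libraries made. The 8 genes, the list of 32 other genes and the markers were chosen with earlier results of these data known.

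Cells needed at least 500 UMIs, at least 200 genes and a mitochondrial share under 10%. Simulated doublets (expected 0.4% per 1000 barcodes) served to mark doublets within a library, which were removed: 5.36%, 1.38%, 3.58% and 0.683% of cells were marked in the order Vehicle, Vehicle-OVA, Ribavirin, Ribavirin-OVA, against 11.1%, 7.50%, 8.54% and 3.98% expected, so doublets remained. Cells of the 4 libraries were clustered together without batch correction (scanpy 1.11.5, leidenalg 0.10.2, Python 3.11.15; 2000 variable genes without the 8 genes, 30 components, 15 neighbours, resolution 1.0). A cluster was named "-like" from at least 3 detected markers (2-fold higher and in 10% of its cells) unless markers of another class led its top 10 genes. This naming rule, and a second clustering of mixed clusters at resolution 0.5, were set after a first clustering had been seen, and classes may differ from those of the study for that reason.

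Sums of UMIs over the cells of a class in a library were given as CPM. No test was possible with single libraries, and no p-value is given. Sums have exact Poisson intervals, shares Clopper-Pearson intervals and ratios exact conditional binomial intervals (scipy 1.17.1). A gene with 0 UMIs has a floor of 3 counts, between 0.0195 and 0.0358 CPM over all cells. Thinning drew 1000 UMIs per cell and left out shallower cells. Genes named beside the 8 were the 3 leading genes of a described cluster, the 3 genes nearest in pattern (sums of at least 50 cells, at least 200 UMIs), and listed genes at least 2-fold different in the same direction in both OVA pairs with at least 100 UMIs, plus Ccr3. Epcam, Krt5 and the marker genes of single cells with high counts were looked at after those cells had been seen. Positions are from GENCODE M21 on GRCm38, where all 8 gene identifiers matched. Alternatives covered cell filters, doublets, the scaling, clustering and naming. The ratio and interval code was checked on simulated data.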

Additional observations from a re-analysis of the deposited data

Results flagged for a closer look

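For Ccl22, Ccl8 and Ccr4 the OVA ratio, over all cells or in a class, was below 1 under vehicle and above 1 under ribavirin with intervals that did not include 1. With 1 library per group the difference was not tested. Ccl22 over all cells had an OVA ratio of 0.595 under vehicle and 3.17 under ribavirin, and in migratory DC-like cells 0.778 and 2.75. At equal depth, the share of migratory DC-like cells with a Ccl22 UMI was higher with OVA in both pairs. Leaving out the top Ccl22 cell of each library, chosen after seeing the data, the ratios over all cells were 0.503 and 2.75, and without the 4 and 10 B-lineage cells of more than 10 Ccl22 UMIs they were 0.390 and 1.21, so the size under ribavirin rested mostly on those cells. Ccl8 in macrophage-like cells had ratios of 0.427 and 1.60, where the Arg1 cluster held most of the class with OVA and the Ccl12 cluster most of it without. Over all cells Ccl8 had a ratio of 0.994 under vehicle, with an interval that included 1. Ccr4 over all cells had ratios of 0.507 and 1.40, while within T-lineage cells both were above 1 (1.13 and 1.48). Ccr8 over all cells had ratios of 0.554 and 1.44, the second with an interval that included 1. The median gene had a ratio of 1.00 for OVA under vehicle and 1.36 under ribavirin. Under ribavirin, the interval of Ccr4 over all cells (1.26 to 1.57) included that value. The 1.21 of Ccl22 without those B-lineage cells lay below it.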

How the results depend on the processing

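No paired analysis was possible because each group was 1 library and the labels give no replicate numbers. For the counts of genes past the 2-fold line, 42 of 44 alternatives stayed within 1.5 times the value reported. The mean of single-cell CPM, which weights each cell equally, gave 7 genes in place of 4 for OVA under vehicle (adding Ccl22, Ccr4 and Ccr8 as lower) and 5 in place of 3 for ribavirin with OVA (Ccl22, Ccl8, Ccl1, Ccr4 and Ccr8, all higher). Scaling to the median gene shifted log2 ratios by 0.44 for OVA under ribavirin and by 0.43 for ribavirin with OVA, and gave 6 genes (4 higher, 2 lower) and 2 genes (1 higher, 1 lower). Without the B-lineage cells of more than 10 Ccl22 UMIs (chosen after seeing the data), Ccl22 left the genes past the line for OVA under ribavirin and joined those lower for OVA under vehicle. None of the 292 alternatives for ratios over all cells reversed a called direction, and 8 of 229 within classes did. A ratio within 2-fold could not count as reversed. A further 91 and 67 alternatives fell outside the counting interval of the value reported, as did 142 of 320 for source shares. For the shares of split T-lineage cells with a Ccr4 or Ccr8 UMI, all 10 alternatives, thinned to 1000 UMIs, fell outside. Without the top cells, Ccl1 for OVA under ribavirin went from 0.545 to 1.32. Ccl11 for ribavirin with OVA went from 0.709 to 1.31. The log2 OVA ratio of Ccl8 in macrophage-like cells under vehicle, −1.23, became 0.14 at resolution 0.5, 0.14 with libraries clustered separately, 0.22 with classes from marker UMIs of single cells, and 0.16 with unnamed clusters given their best class (chosen after seeing the data), which adds cells to the class. That of Ccl22 in migratory DC-like cells under ribavirin, 1.46, became −0.61 with libraries clustered separately. That of Ccl1 in T-lineage cells under vehicle, −2.54, became 0.063 at a mitochondrial limit of 20%, 0.051 at 1000 UMIs and 500 genes, and 0.044 with the 8 genes among the variable genes. The causes of the last 2 were not tested. Depth limits Ccr8, with 20 to 58 UMIs per library, most.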
